A study of Mus musculus with 8 samples.

Results

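The immune miRNAs described here are the reads of mouse sperm small RNA libraries whose annotation names only mmu-mir-142a, mmu-mir-142, mmu-mir-150, mmu-mir-155, mmu-mir-223, mmu-mir-146a, mmu-mir-146b or mmu-mir-21a. These names were chosen as a list with no measured value as a criterion, though earlier results of these data were known. Of the 8 names, 7 had reads, out of 752 miRNA hairpin names in the files, and mmu-mir-142 had none, as the annotation uses the name mmu-mir-142a. The 7 names held 216 of 5724730 distinct fragments. A further 17 reads fit mmu-mir-146a and mmu-mir-146b equally and were counted for neither.

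The study sequenced small non-coding RNA of mature sperm from the caudae epididymides of 4 mice with activated AgRP neurons, the hunger-promoting neurons of the hypothalamus, and 4 control mice. Activated mice were Agrp Cre/+ and control mice were Agrp +/+. Mice of both genotypes were males, 8 weeks old at surgery, and received an adeno-associated virus with hSYN-DIO-hM3D(Gq)-mCherry, which encodes an engineered receptor (a DREADD), in the arcuate nucleus. Both genotypes were then given the DREADD ligand CNO at 1 mg per kg after 1 h without food, and sperm was taken 4 h later, still without food. The virus needs Cre to express the receptor, so control mice carried virus and ligand with no receptor, and the groups also differ in the Agrp Cre allele itself. The methods describe washes of the sperm and no sort. They also describe a qPCR check of purity with Prm2 for sperm and E-cadherin and C-kit for other cells. The paper reports Prm2 as strongly enriched and the other markers as low. That check is not in the files used here, and the small RNA files hold no leukocyte marker other than miRNAs.

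miRNAs are cut from hairpin precursors, and bases 2 to 8 of the mature strand, the seed, choose the messenger RNAs that are repressed. Several of the listed miRNAs are hallmarks of blood cells: miR-142 across blood lineages, miR-150 in mature lymphocytes, miR-223 in neutrophils and other myeloid cells, and miR-155 in activated lymphocytes and macrophages. miR-146a and miR-146b dampen signalling from Toll-like receptors to NF-kB, while miR-21 is abundant in many cell types and marks no single lineage.

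The mature strands below, from RefSeq for GRCm38.p6, are those that gave most reads of each miRNA, and the last line is the commonest fragment of mmu-mir-142a in these libraries, shown because it differs from the reference in its seed. Capitals mark the seed. Reference entries matched 6 of the 7 miRNAs with reads.
mmu-miR-142a-5p: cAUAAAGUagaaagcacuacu
mmu-miR-155-5p: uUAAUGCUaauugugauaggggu
mmu-miR-223-3p: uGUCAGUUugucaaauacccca
mmu-miR-146a-5p: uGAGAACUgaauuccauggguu
mmu-miR-146b-5p: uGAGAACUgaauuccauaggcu
mmu-miR-21a-5p: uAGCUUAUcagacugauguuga
commonest mmu-mir-142a fragment: cCCAUAAAguagaaagcacuac

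miR-146a-5p and miR-146b-5p share their seed with each other and with no other of 1679 reference mature miRNAs. The seed of miR-21a-5p is also that of miR-21c, and the other reference seeds above belong to 1 miRNA each. On GRCm38, Mir142 lies at chr11:87756864-87756927 on the plus strand, in an intron of the non-coding Mir142hg and opposite Mir142b. Mir155 at chr16:84714140-84714204, plus strand, lies in an exon of the non-coding Mir155hg, and Mir223 at chrX:96242817-96242926, plus strand, in an exon of the non-coding F630028O10Rik. Mir146, the gene of mmu-mir-146a, is at chr11:43374397-43374461 on the minus strand, while Mir146b at chr19:46342762-46342870, plus strand, lies in an intron of Mfsd13a. Mir21a at chr11:86584067-86584158, minus strand, lies in an untranslated exon of Vmp1.

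The libraries held 9297271 to 23123740 reads, of which 17.8 to 47.1% were annotated as miRNA. Some libraries stand apart in ways that the groups do not follow. Reads annotated Mt_rRNA, the mitochondrial rRNA class that leaves out those named 16S-rRNA and 12S-rRNA, were 0.123 to 0.182% in activated 1, activated 4, control 2 and control 4, and 1.09 to 1.89% in the other 4 libraries. With all 3 names counted the shares were 1.80 to 2.24% and 7.11 to 8.35%, with the same libraries in each set. The low set had 33.2 to 47.1% miRNA reads and the high set 17.8 to 28.9%. Control 4 carried 35308 reads per 1000000 of the file total (RPM) of muscle miRNAs, against 138 to 393 RPM in the other 7 libraries, and activated 3 carried 245 RPM of mmu-mir-150, the highest of all. For several results below, values without these libraries are given too.

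Together the immune miRNAs made up 841 to 3464 RPM, or 0.343 to 0.762% of the miRNA reads of a library. By mean RPM over the 8 libraries (± SD, n = 8) the order was mmu-mir-21a at 946 ± 704, mmu-mir-142a at 436 ± 165, mmu-mir-146b at 172 ± 62.6 and mmu-mir-146a at 102 ± 94.9, then mmu-mir-150 at 58.8 ± 78.6, mmu-mir-223 at 20.4 ± 12.9 and mmu-mir-155 at 2.20 ± 1.84. The first was number 42 and the last number 282 of the 752 names. For scale, the most abundant miRNAs were mmu-mir-16 at 85317 RPM, mmu-mir-191 at 63084 RPM and mmu-mir-15b at 21099 RPM.

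Within each library mmu-mir-21a was above mmu-mir-142a, and mmu-mir-142a above mmu-mir-146b, in 8 of 8. mmu-mir-146b was above mmu-mir-146a in 6 of 8 libraries, mmu-mir-146a above mmu-mir-150 in 7 of 8, and mmu-mir-150 above mmu-mir-223 in 7 of 8. The latter 3 pairs thus do not keep their order in every library. Over libraries the ranges of all 5 pairs overlap, and those of mmu-mir-223 and mmu-mir-155 alone are apart.

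**Figure D1:**
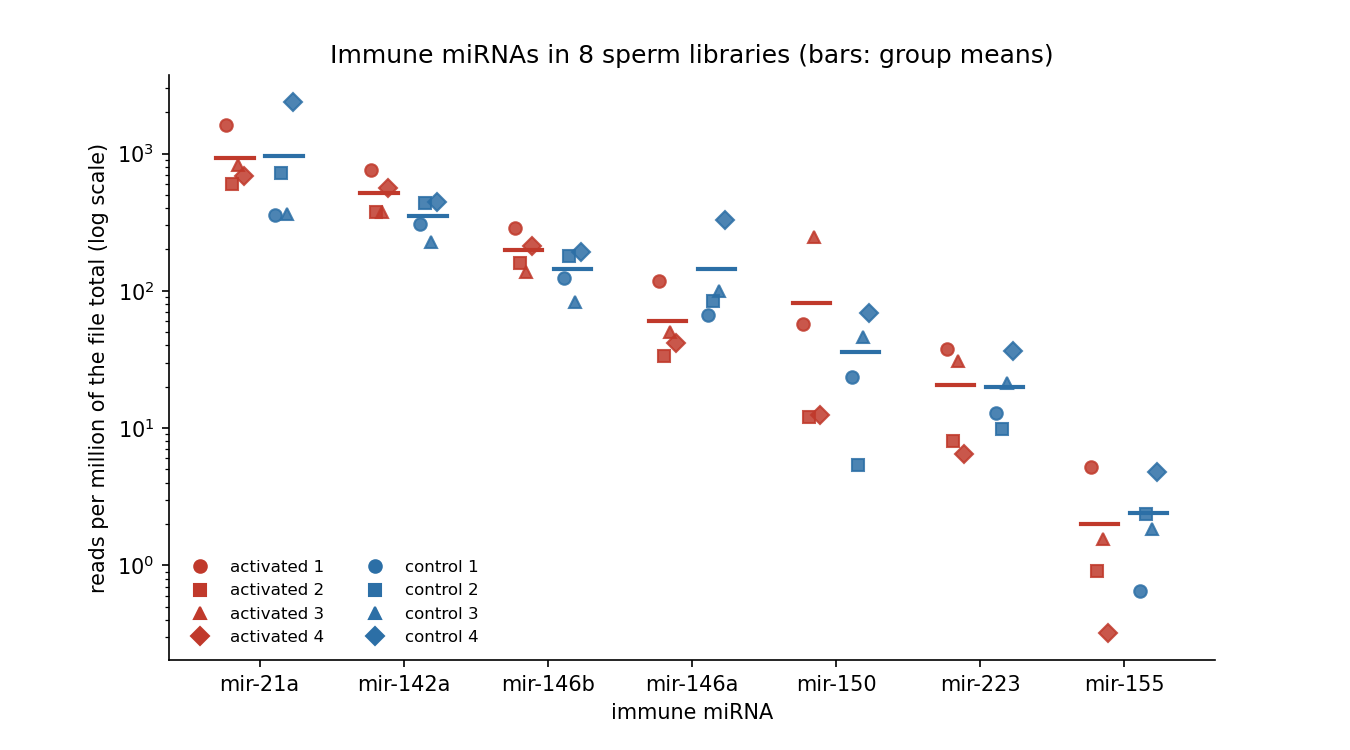
Reads per 1000000 of the file total (log axis) for each immune miRNA, with 1 point per library, activated in red, control in blue, the symbol giving the replicate, and a bar at each group mean (n = 4). The groups overlap for each of the 7 miRNAs, and single libraries (control 4 for mir-146a and mir-21a, activated 3 for mir-150) sit far above the rest of their group.

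mmu-mir-142a, the marker of blood lineages, was at 762, 377, 378 and 562 RPM in activated 1 to 4 and at 306, 437, 226 and 443 RPM in control 1 to 4. Activated 1 was highest and control 3 lowest, and the groups overlap. The means were 520 ± 183 and 353 ± 106 RPM (SD, n = 4 each), a ratio of 1.47 (two-sided exact permutation test over 70 assignments, p = 0.171, adjusted p = 0.902 over the 273 miRNA species tested). A different number of cells of a type, sperm or other, and a different amount of RNA per cell cannot be told apart in such bulk libraries.

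mmu-mir-146b, of the seed shared with mmu-mir-146a, was at 289, 159, 137 and 212 RPM in activated 1 to 4 and at 123, 179, 82.8 and 193 RPM in control 1 to 4. Its highest and lowest libraries were those of mmu-mir-142a, and the groups overlap. The means were 199 ± 67.5 and 145 ± 51.0 RPM (SD, n = 4 each), a ratio of 1.38 (exact permutation p = 0.286, adjusted p = 0.902).

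Both of these miRNAs were higher in every low-set library than in every high-set library, at 437 to 762 against 226 to 378 RPM for mmu-mir-142a and at 179 to 289 against 82.8 to 159 RPM for mmu-mir-146b. The same held for 109 of 273 miRNA species (39.9%). In reads per 1000000 miRNA reads the sets overlap for both. Within each set, both activated libraries were above both control libraries for both miRNAs. The log2 ratio of mean RPM was 0.59 in the low set and 0.51 in the high set for mmu-mir-142a. It was 0.43 and 0.52 for mmu-mir-146b (2 against 2 libraries, no test). How many of the 273 miRNA species kept this order was not counted, so it cannot be called particular to these miRNAs. Their profiles are also nearly the same, so they are not separate observations. With the set as a covariate in edgeR, an alternative chosen after seeing the data, the log2 fold change of mmu-mir-142a was 0.57 ± 0.19 (SE, adjusted p = 0.421, which over all alternatives ranged from 0.355 to 0.857).

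In reads per 1000000 miRNA reads, mmu-mir-142a was at 2012, 1305, 1648 and 1502 in activated 1 to 4 and at 1179, 1316, 1266 and 941 in control 1 to 4. Only activated 2 lies within the control range, just under control 2 (exact permutation p = 0.0571, adjusted p = 0.688). mmu-mir-146b was at 763, 549, 597 and 568 in activated libraries and at 474, 539, 464 and 410 in control libraries. All 4 activated libraries were above all 4 control libraries, with means of 619 ± 97.6 and 472 ± 52.8 (SD, n = 4 each; exact permutation p = 0.0286, the smallest that 4 against 4 can give; adjusted p = 0.688). On this scale the groups were apart for 11 of 273 miRNA species (4.03%, where chance gives 2.86% for 4 against 4), the same number as had an unadjusted p under 0.05, and 0 of 273 passed an adjusted p of 0.05 (0%). In RPM the groups were apart for 6 of 273 species (2.2%), none of them an immune miRNA, as many as had an unadjusted p under 0.05, and again 0 of 273 passed (0%). With a smallest possible p of 0.0286, a few species at that floor cannot pass among 273, so these counts of 0 decide nothing.

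**Figure D2:**
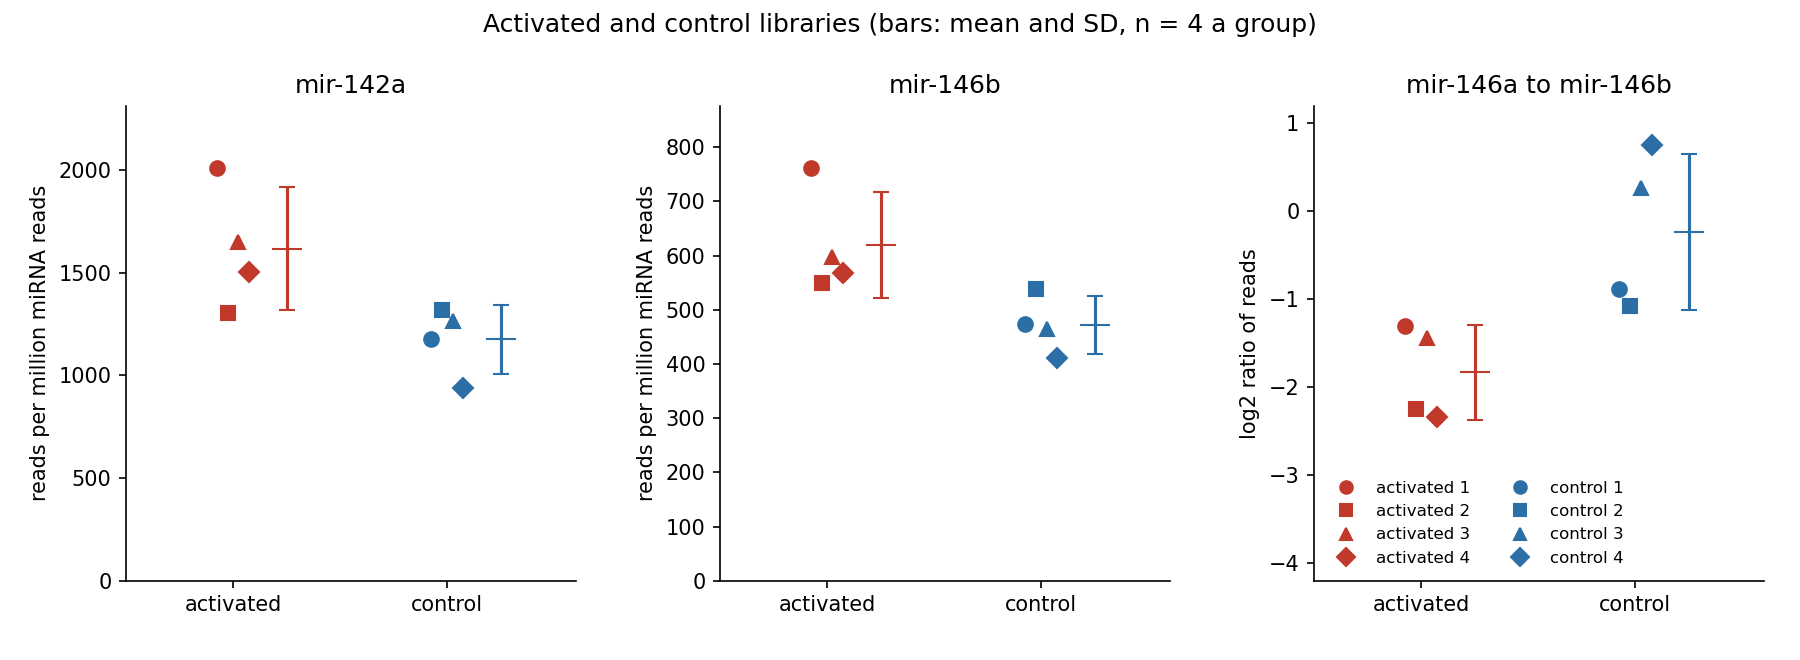
Reads per 1000000 miRNA reads of mir-142a and mir-146b, and the log2 ratio of mir-146a to mir-146b reads, in each library, with symbols for replicates and bars for the mean and SD of each group (n = 4). The mir-146b groups do not overlap, the mir-142a groups touch at activated 2 and control 2, and the ratio lies lower in each activated library than in each control library.

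mmu-mir-146a was at 117, 33.4, 50.4 and 42.0 RPM in activated 1 to 4 and at 66.7, 84.6, 99.2 and 326 RPM in control 1 to 4. Control 4 was highest, activated 1 lay within the control range, and the other 3 activated libraries were below all control libraries. The means were 60.7 ± 38.2 and 144 ± 122 RPM (SD, n = 4 each), a ratio of 0.421 (exact permutation p = 0.2, adjusted p = 0.902). Without control 4 the ratio of means was 0.727, still lower in activated libraries. Within sets the log2 ratio was -1.37 in the low set, which holds control 4, and -0.98 in the high set.

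The means of the 2 miRNAs with the same seed differ in direction, and their ratio within a library does not depend on the library total. The log2 ratio of mmu-mir-146a to mmu-mir-146b was -1.30, -2.25, -1.44 and -2.34 in activated 1 to 4 and -0.89, -1.08, 0.26 and 0.76 in control 1 to 4. All 4 activated libraries were below all 4 control libraries, and mmu-mir-146a exceeded mmu-mir-146b in control 3 and control 4 alone. The means differed by -1.60 (exact permutation p = 0.0286, adjusted p = 0.0857 over 3 ratios; 0.0857 to 0.257 over the alternatives), and by -1.26 without control 4. The difference does not pass the adjusted threshold, which 1 of 3 ratios at the smallest possible p cannot pass alone.

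mmu-mir-21a was at 1616, 601, 822 and 685 RPM in activated 1 to 4 and at 358, 725, 365 and 2392 RPM in control 1 to 4. Control 4 and activated 1 were highest, and the activated range lies within the control range, which without control 4 is 358 to 725 RPM. The means were 931 ± 466 and 960 ± 970 RPM (SD, n = 4 each), a ratio of 0.970 (exact permutation p = 0.971, adjusted p = 0.986). The direction is not firm: the ratio was 1.08 without activated 2, 1.008 without activated 3, 1.06 without activated 4 and 1.93 without control 4, which moved it most (exact permutation p = 0.2). edgeR's log2 fold change was 0.020 without activated 4, and without control 4 it went from -0.13 ± 0.66 to 0.92 ± 0.35 (SE, p = 0.0274, adjusted p = 0.355; 0.355 to 0.997 over the alternatives). Within sets the log2 ratio was -0.44 in the low set, which holds control 4, and 0.98 in the high set. The log2 ratio of mmu-mir-21a to mmu-mir-142a was 2.43 in control 4 and 0.23 to 1.12 in the other 7 libraries, with a difference of -0.23 between groups (exact permutation p = 0.8) and of 0.24 without control 4.

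mmu-mir-150, the lymphocyte miRNA, was at 57.2, 12.1, 245 and 12.5 RPM in activated 1 to 4 and at 23.4, 5.36, 46.0 and 68.9 RPM in control 1 to 4. It varied most among the immune miRNAs, with a highest library 45.6 times the lowest, and activated 3 stands alone at the top. The means were 81.6 ± 111 and 35.9 ± 27.6 RPM (SD, n = 4 each; exact permutation p = 0.686, adjusted p = 0.931). The direction depends on activated 3: the ratio of means was 2.27 with it and 0.759 without it. Within sets the log2 ratio was -0.09 in the low set and 1.89 in the high set, which holds activated 3.

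mmu-mir-223, the myeloid miRNA, was at 37.6, 8.0, 30.9 and 6.48 RPM in activated 1 to 4 and at 12.9, 9.90, 21.2 and 36.3 RPM in control 1 to 4. High and low libraries occur in both groups, at means of 20.7 ± 15.8 and 20.1 ± 11.8 RPM (SD, n = 4 each; exact permutation p = 0.971, adjusted p = 0.986). The ratio of 1.03 has no firm direction and was 0.754 without activated 1, 0.865 without activated 3, 0.923 without control 1 and 0.884 without control 2. Within sets its log2 ratio was -0.069 and 0.19. The log2 ratio of mmu-mir-150 to mmu-mir-223 was 0.61, 0.60, 2.99 and 0.95 in activated libraries and 0.86, -0.89, 1.12 and 0.92 in control libraries. Without the tailed reads described below, the lymphocyte miRNA was the higher one in 7 of 8 libraries, control 2 being the other, and the groups overlap. The means differed by 0.78 (exact permutation p = 0.514, adjusted p = 0.771), and by 0.21 without activated 3 or 0.32 without control 2.

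mmu-mir-155, the miRNA of activated immune cells, had 3 to 77 reads a library, and at least 50 in 3 libraries, so it had no test at that minimum. With at least 10 counts edgeR gave a log2 fold change of -0.36 (adjusted p = 0.836). Its level was 0.319 to 5.17 RPM in activated and 0.644 to 4.81 RPM in control libraries. Activated 1 and control 4, the highest libraries for mmu-mir-21a, mmu-mir-223 and mmu-mir-146a too, were highest, and the groups overlap. The ratio of means was 0.824 and has no firm direction: it was 0.385 without activated 1, 1.05 without activated 4 and 1.23 without control 4. Its 3 reads in activated 4 allow 0.108 to 0.937 RPM (Wilson 95% interval), while the intervals of mmu-mir-142a are narrow, such as 748 to 776 RPM in activated 1. Such intervals cover counting error only.

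**Figure D3:**
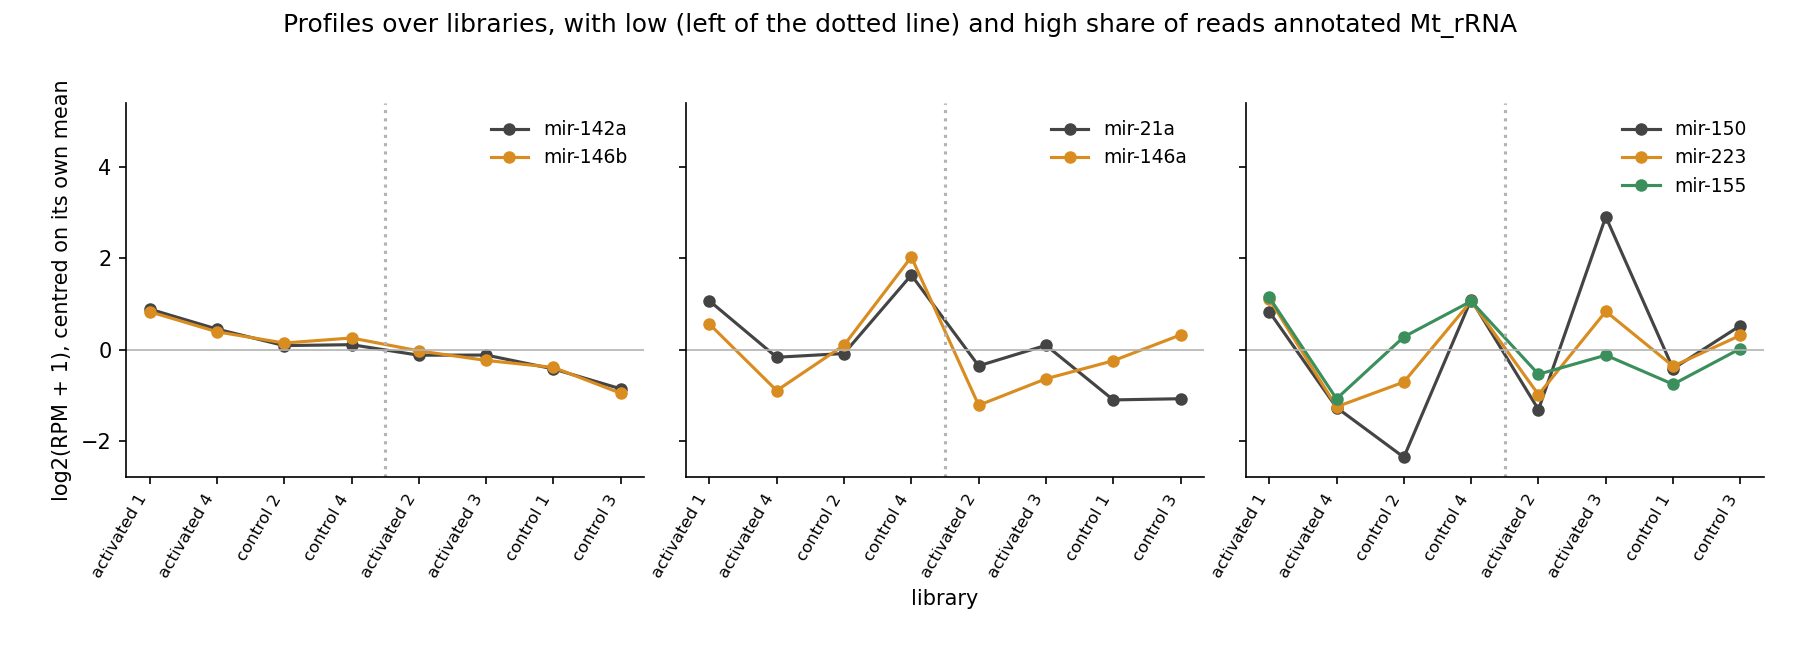
log2(RPM + 1) of each immune miRNA, centred on its own mean, over the 8 libraries, with the set low in reads annotated Mt_rRNA left of the dotted line and the high set right of it. mir-142a and mir-146b run together, mir-21a and mir-146a peak in control 4, and mir-150 peaks in activated 3.

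Across libraries mmu-mir-142a and mmu-mir-146b had nearly the same profile. The root mean square difference between their centred log2(RPM + 1) profiles was 0.0901 over 8 libraries. Of 241 candidate miRNA species outside the list, those most like mmu-mir-142a were mmu-mir-466d (0.122), mmu-mir-669c (0.146) and mmu-mir-297a (0.150). mmu-mir-150 differed from mmu-mir-142a by 1.68 and mmu-mir-223 by 0.972, so the blood-cell miRNAs do not share a profile here. The species most like mmu-mir-21a were mmu-mir-29c (0.245), mmu-let-7i (0.264) and mmu-mir-322 (0.283). No candidate came as near to mmu-mir-223, where mmu-mir-330 (0.534), mmu-mir-3535 (0.587) and mmu-mir-3068 (0.589) were the nearest.

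In the fit of all RNA species with edgeR's quasi-likelihood test, 0 of 6 immune miRNAs with at least 50 reads in at least 4 libraries were called by an adjusted p below 0.05 together with an absolute log2 fold change above 1. The log2 fold changes, activated over control, were 0.53 ± 0.29 for mmu-mir-142a (SE, adjusted p = 0.559) and -1.35 ± 0.60 for mmu-mir-146a (adjusted p = 0.559). In that fit none of the 6 had an unadjusted p under 0.05. Over 20 alternatives in edgeR such a p occurred in 9 for mmu-mir-146a (6 of 12 with all libraries, 3 of 8 with 1 left out), in 3 for mmu-mir-142a (2 and 1) and in 1 for mmu-mir-21a (without control 4), and no adjusted p was under 0.05. Of all species in those fits, from 17 of 583 (without activated 4) to 80 of 563 (without control 2) had such a p. It was 69 of 574 without control 4 and 31 of 273 with miRNA species only. Without control 4 the log2 fold change of mmu-mir-146a was -0.53. With all libraries the log2 fold changes were 0.43 ± 0.32 for mmu-mir-146b, 1.31 ± 1.12 for mmu-mir-150, or -0.59 without activated 3, and 0.028 ± 0.66 for mmu-mir-223. The median over the 6 was 0.23, with 4 higher and 2 lower, beside 0.15 over 273 miRNA species, of which 167 were higher, and -0.07 over all 587 species, of which 270 were higher. Single libraries moved the count of the 6: 2 were higher without activated 3, and 5 without activated 4 or without control 4.

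Of all 587 species, 0 were called by edgeR (0%), with 48 at an unadjusted p under 0.05, and 3 by DESeq2 (0.511%). Those 3, named after their values were seen, were mmu-mir-451a, the shared fragments of mmu-mir-486a and mmu-mir-486b, and the 5′ end of tRNA-Glu-TTC, all lower in activated libraries. For some of the 587 species DESeq2 gave no p, among them mmu-mir-143, mmu-mir-200c and mmu-mir-126a, so it could not call these. All 6 immune miRNAs had a p, and DESeq2 called 0 of them. Its log2 fold changes, shrunken by apeglm, were nearer 0, at -0.14 for mmu-mir-146a, 0.22 for mmu-mir-142a, 0.13 for mmu-mir-146b, 0.027 for mmu-mir-150, 0.0050 for mmu-mir-223 and -0.0052 for mmu-mir-21a, and mmu-mir-146a had the smallest unadjusted p there (0.0182, adjusted p = 0.276; 0.276 to 0.828 over the alternatives of both tools). Of 12077 single fragments tested, edgeR called 52 (0.431%) and DESeq2 240 (1.99%). None of the 23 immune miRNA fragments among them was called by either tool, with 2 at an unadjusted p under 0.05 and a smallest adjusted p of 0.631 in edgeR; 15 were higher and 8 lower. Of all 12077 fragments, 872 had an unadjusted p under 0.05, and 6801 were higher and 5276 lower. The edgeR count changed when 1 library was left out. It was 0 without any one of activated 1, activated 3, activated 4, control 2, control 3 or control 4. Without activated 2 it was 15, and without control 1 it was 54. Whether single libraries or the smaller groups made the difference was not tested.

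Reads of mmu-mir-142a began mostly 2 bases upstream of the reference start. Of 50169 reads of its 5′ arm, 41519 (82.8%) started there, 8.68% a base further upstream and 8.20% at the reference start. The share at the reference start was 12.7, 5.82, 7.79 and 6.86% in activated 1 to 4 and 4.35, 8.15, 9.51 and 6.21% in control 1 to 4. The upstream start dominates in all 8 libraries, at 80.2 to 85.1% of reads, and the groups overlap. The start shifts the seed from AUAAAGU to CCAUAAA, which among 1679 reference mature miRNAs only miR-142b carries, itself at a mean of 0.0931 RPM as mmu-mir-142b.

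Among 191 tested miRNA species with a reference strand, 14 (7.33%) had their commonest start elsewhere, and the median share at the reference start was 98.9%. mmu-mir-142a had the number 10 lowest share. mmu-mir-146a, mmu-mir-146b and mmu-mir-21a began at the reference start in 99.4, 99.6 and 99.5% of reads. mmu-mir-223 did so in 91.4%, with 7.51% starting 1 base downstream.

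At the other end, mmu-mir-146b ran most often 2 bases past the reference end (47.2% of reads), while mmu-mir-146a (62.0%) and mmu-mir-21a (52.6%) ended most often at it. mmu-mir-142a ended most often 3 bases short (35.01%) or 1 base short (34.7%). The share of mmu-mir-146a reads of reference length or longer was 88.7, 90.2, 93.0 and 91.4% in activated 1 to 4 and 94.7, 93.1, 95.1 and 93.6% in control 1 to 4. All activated libraries were below all control libraries, by -3.27 percentage points in the mean (exact permutation p = 0.0286, adjusted p = 0.381 over 20 shares of arms, starts, lengths and tails). For mmu-mir-223 that share was 52.4 ± 8.96% in activated and 66.6 ± 5.06% in control libraries (SD, n = 4 each; exact permutation p = 0.0571, adjusted p = 0.381), and activated 3 was within the control range.

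The 3′ arm of mmu-mir-142a gave 2.85, 1.55, 2.22 and 2.06% of its reads in activated 1 to 4 and 1.34, 1.68, 1.38 and 1.48% in control 1 to 4. Activated 2 alone lies within the control range, and the means were 2.17 ± 0.539 and 1.47 ± 0.153% (SD, n = 4 each; exact permutation p = 0.0571, adjusted p = 0.381). The minor arm gave 0.822% of reads of mmu-mir-146b, 0.0910% of mmu-mir-21a and 1.51% of mmu-mir-223, whose mean over libraries went from 1.31 to 0.578% with fragments of 18 to 25 nt only. For mmu-mir-146a it gave 0 of 11857 reads, which allows a share of up to 0.0253%. By exact permutation test 0 of the 20 shares passed an adjusted p of 0.05, and no other tool was run on them. The length of mmu-mir-146a alone had an unadjusted p under 0.05. As the smallest possible p is 0.0286, a single share cannot pass among 20, so this 0 decides nothing.

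Many reads carried 1 to 3 bases at the 3′ end that match neither hairpin nor genome, given here as a share of all reads with bases 3 to 18 of the mature strand. Over the 8 libraries such tails were on 43.5% of reads of mmu-mir-223 and 38.7% of mmu-mir-146a, against 14.4% of mmu-mir-146b, 11.5% of mmu-mir-21a and 2.39% of mmu-mir-142a. The sister miRNAs mmu-mir-146a, at 35.4 to 42.7%, and mmu-mir-146b, at 10.5 to 15.9%, were apart in all 8 libraries.

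Among tails that do not match the hairpin, the added base differed between miRNAs. Tails of A only made up 92.9% of the tailed reads of mmu-mir-21a, and 89.2 to 95.8% in single libraries. Tails of T only, which stand for U in RNA, made up 83.3% for mmu-mir-223 and 56.3% for mmu-mir-146a, where A only made up 32.3%. mmu-mir-146b had 47.7% T only and 28.5% A only, and mmu-mir-142a 41.2 and 46.4%. Activated and control libraries overlapped in each of the 5 tail shares. Errors in the last bases of a read cannot be told apart from added bases.

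These tailed reads are not in the levels above, because the annotation puts 82.5 to 99.1% of them for 5 miRNAs, and 55.2% for mmu-mir-155, among piRNAs and the rest in no class. They made up 0.108 to 0.295% of all reads annotated as piRNA in a library. Adding them to the counts, an alternative chosen after seeing the data, called 0 of 6 immune miRNAs in edgeR, with 49 of 587 species at an unadjusted p under 0.05. With tailed reads mmu-mir-223 had 934 reads in activated 1 and 238 in activated 2. mmu-mir-150 had 852 and 212, but no reference strand with which to count its tails. The order of these 2 miRNAs in those libraries thus depends on the tails.

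**Figure D4:**
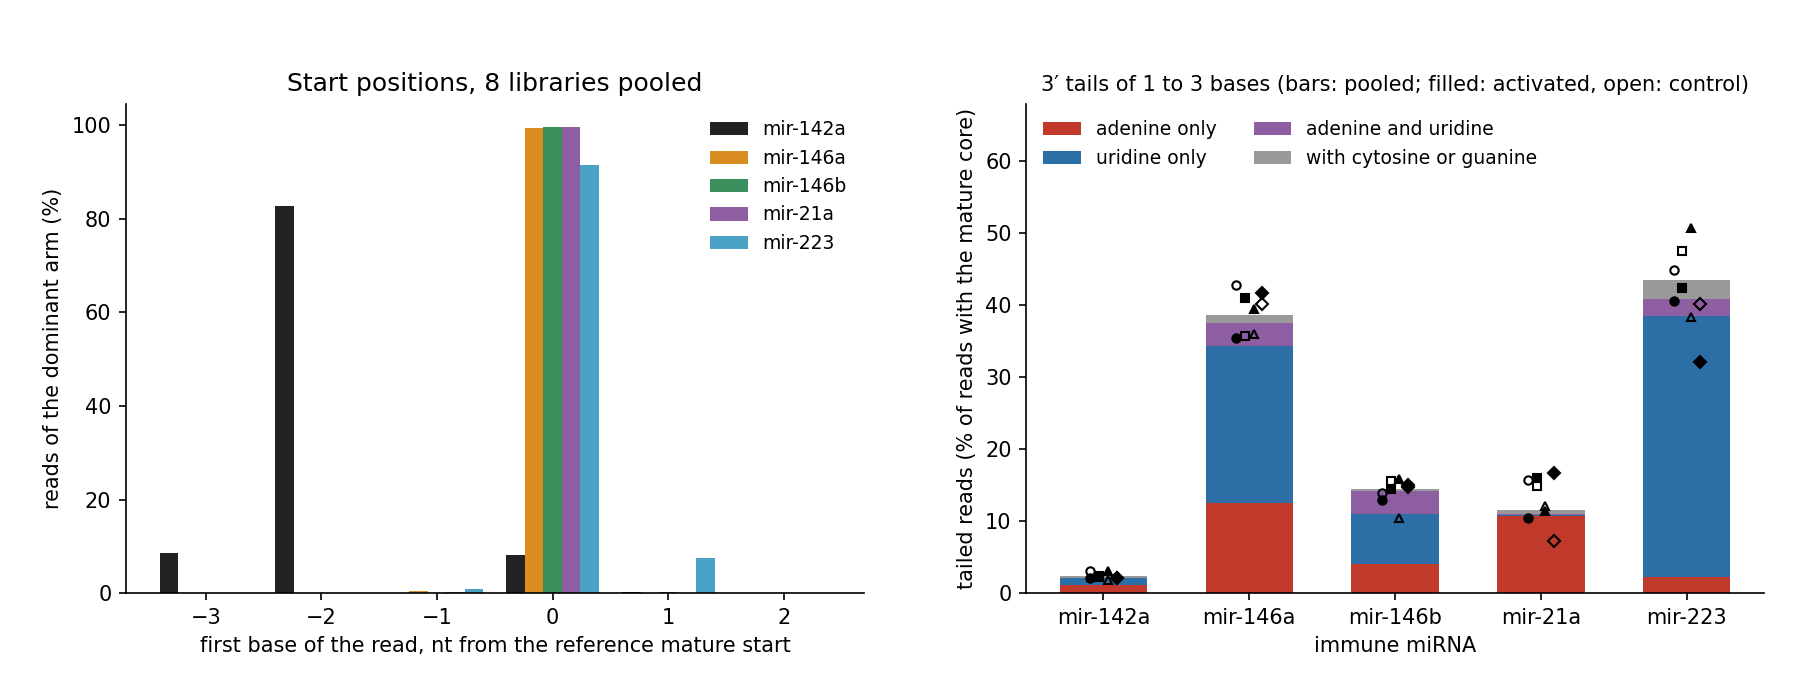
Left, the share of reads (%) of the dominant arm by the distance of the first base from the reference start in nucleotides, with the 8 libraries pooled; right, the share (%) of reads with a 3′ tail, split by the bases added (bars, pooled) and in each library (points, filled for activated and open for control). mir-142a alone starts mostly 2 bases upstream, and tails that do not match the hairpin are commonest on mir-223 and mir-146a and mostly of adenine on mir-21a.

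Marker miRNAs of other cells were summed in each library beside these levels. The muscle list (6 of 6 detected, most abundant mmu-mir-143) was at 393, 200, 138 and 292 RPM in activated 1 to 4 and at 200, 362, 244 and 35308 RPM in control 1 to 4. The epithelium list (7 of 7, mmu-mir-200c) was at 3476, 1166, 1085 and 1196 RPM and at 1364, 1825, 2733 and 19420 RPM. The endothelial mmu-mir-126a was at 132, 58.4, 42.4 and 82.2 RPM and at 54.9, 82.5, 62.9 and 1182 RPM.

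Control 4 is highest and activated 1 second in all these lists, as for mmu-mir-21a and mmu-mir-146a. In edgeR 2 of 2 tested species of the muscle list, 7 of 7 of the epithelium list and mmu-mir-126a were lower in activated libraries, and 0 passed. Part of this depends on control 4: without it, an alternative chosen after seeing the data, 1 of 2 and 6 of 7 were lower and mmu-mir-126a was higher, while without any other library all were lower. The mean levels were then 256 RPM in activated and 269 RPM in control libraries for the muscle list, 1731 and 1974 RPM for the epithelium list and 78.6 and 66.8 RPM for mmu-mir-126a. The erythrocyte list (4 of 4, mmu-mir-451a) was at 298, 83.5, 113 and 84.1 RPM in activated libraries and at 235, 532, 976 and 659 RPM in control libraries, where activated 1 alone reaches the control range. In edgeR 3 of 3 tested species of that list were lower in activated libraries, and 0 passed, with mmu-mir-451a at a log2 fold change of -1.95 (adjusted p = 0.554); mmu-mir-451a and the mmu-mir-486a and mmu-mir-486b fragments are those that DESeq2 called.

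Other leukocyte-linked miRNAs (11 of 11 detected, most abundant mmu-mir-342) were at 1930, 1406, 3153 and 1780 RPM in activated and at 1356, 1455, 1145 and 2411 RPM in control libraries. Activated 3 was highest in the sum, as for mmu-mir-150. Most of that sum was mmu-mir-342, at 2657 of 3153 RPM there and at 742 to 1270 RPM elsewhere. Control 4 held 2411 RPM in all, so the rest of the list was higher there than in activated 3. Of the 8 tested in edgeR, 4 were higher and 4 lower in activated libraries, and 0 passed. The count depends on the libraries: leaving out 1 in turn, from 2 of 8 (without activated 4) to 7 of 7 (without control 4) were higher, and the ratio of mean levels, 1.30 with all libraries, ranged from 1.07 (without activated 3) to 1.57 (without control 4). The testis and sperm list (13 of 13, mmu-mir-34b) was at 48904, 35561, 28947 and 46996 RPM and at 30860, 41680, 23090 and 35856 RPM. It exceeded the immune miRNAs in every library, and 13 of 13 were higher in activated libraries with 0 passed, or 12 of 13 without activated 3 or control 3, beside 167 of all 273 miRNA species higher. What part any of these lists has in the levels of the immune miRNAs was not tested.

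**Figure D5:**
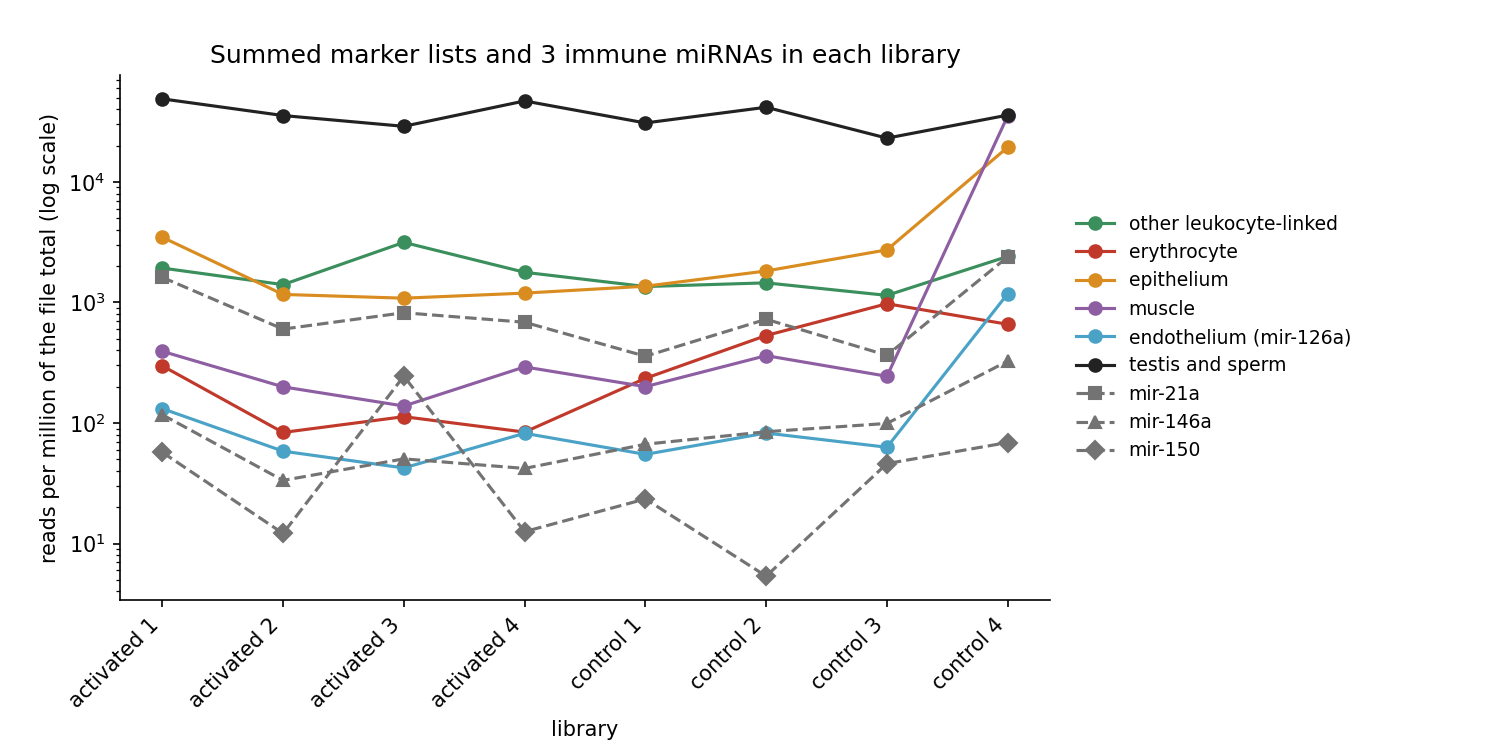
Summed reads per 1000000 of the file total (log axis) of 6 marker lists (solid lines) and of mir-21a, mir-146a and mir-150 (dashed lines) in each library; lines only join the points of a list. Muscle, epithelium and endothelium lists peak in control 4 together with mir-21a and mir-146a. The sum of the other leukocyte-linked list, most of it mir-342 there, peaks in activated 3 together with mir-150.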

How the data were processed

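Small RNA of mature sperm was sequenced in 8 libraries, 4 activated and 4 control. The authors deposited the count of each distinct read, annotated with SPORTS1.1, which runs Bowtie on mm10 and on small RNA databases with no mismatch. The deposited summary tables give each hairpin as an expected count, which divides reads among names; it was used, rounded to whole numbers, in an alternative. Reads per name were summed with copy suffixes removed and divided by the file total. Species and fragments with at least 50 counts in at least 4 libraries were tested in edgeR 4.0.16 (quasi-likelihood test, TMM) under R 4.3.3, with DESeq2 1.42.0 and apeglm 1.24.0 as an alternative, and called at a Benjamini-Hochberg adjusted p under 0.05 and an absolute log2 fold change over 1. Levels, shares and ratios were set against each other, two-sided, with exact permutation tests (scipy 1.17.1). Shares needed at least 50 reads in every library. Named miRNAs are all members, the 3 most abundant miRNAs, the 3 species of most similar profile to mmu-mir-142a, mmu-mir-223 and mmu-mir-21a, and the most abundant species of each marker list, together with the species that DESeq2 called, named after their values were seen, and miRNAs of the same seed as a printed strand. The fits were tested on simulated data, and no result of that is given or used here. The members and lists were chosen with earlier results of these data known. Alternatives changed the scaling, count minimum, read length, denominator, tool or libraries; 5 were added after seeing the data.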

Additional observations from a re-analysis of the deposited data

Results flagged for a closer look

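Single libraries lay far from the other 3 of their group in 10 of 72 groups of values examined (13.9%), where chance alone sets apart about 1 in 20 groups of independent normal values. The groups examined here share libraries and were not tested for normality, so that rate need not hold for them. Control 4 was far above the other control libraries for mmu-mir-146a (326 RPM, the others at most 99.2 RPM), the muscle list (35308 RPM), the epithelium list (19420 RPM) and mmu-mir-126a of endothelium (1182 RPM). Activated 1 was far above the other activated libraries for the erythrocyte list (298 RPM) and the epithelium list (3476 RPM). Activated 3 stood apart in the log2 ratio of mmu-mir-150 to mmu-mir-223 (2.99) and in the tailed share of mmu-mir-142a (3.10%). Control 2 stood apart in the same log2 ratio (-0.89), and control 3 in the minor arm share of mmu-mir-21a (0.178%). The causes were not tested.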

How the results depend on the processing

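The number of immune miRNAs called stayed at 0 under all 21 alternatives of the species fit, and 0 levels, shares or ratios passed an adjusted p of 0.05 under any alternative. mmu-mir-142a and mmu-mir-146b were higher, and mmu-mir-146a lower, in activated libraries under every alternative run. With 4 libraries a group the exact test cannot go below 0.0286, and mmu-mir-155 and the minor arms of mmu-mir-223 and mmu-mir-21a rest on few reads. Where a value below differs from that in the report, the cause was not tested.

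edgeR called 0 of 587 species, with 48 at an unadjusted p under 0.05, and DESeq2 called 3. It called 52 fragments, DESeq2 called 240, and leaving out 1 library gave 0 to 54. With replicate number as a block edgeR called 0 species, 0 fragments and 0 immune miRNAs, with 531 fragments at an unadjusted p under 0.05; mmu-mir-21a was then at a log2 fold change of 0.42 and mmu-mir-223 at -0.032. Libraries with the same number correlated at -0.51, 0.04, 0.53 and -0.11, so the numbers show no pairing.

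The log2 fold change of mmu-mir-223 was -0.066 with miRNA species only and -0.014 with fragments that match the genome, and that of mmu-mir-21a was 0.26 with the set by reads annotated Mt_rRNA as a covariate, chosen after seeing the data. The ratio of mean levels of mmu-mir-21a was 1.002 in reads per 1000000 reads that match the genome, 1.101 in reads per 1000000 miRNA reads and 1.06 in the latter without 4 muscle miRNAs, where mmu-mir-223 was at 0.991; the last scale was chosen after seeing the data.

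mmu-mir-21a was at a log2 fold change of 0.020 without activated 4, and its ratio of mean levels was 1.08 without activated 2, 1.008 without activated 3 and 1.06 without activated 4. Leaving out 1 library in turn, edgeR's log2 fold change ranged from -0.59 to 1.85 for mmu-mir-150, from -0.42 to 0.92 for mmu-mir-21a and from -0.40 to 0.49 for mmu-mir-223. The ratio of mean levels ranged from 0.759 to 3.27 for mmu-mir-150, 0.385 to 1.23 for mmu-mir-155, 0.732 to 1.93 for mmu-mir-21a and 0.754 to 1.41 for mmu-mir-223, and the log2 ratio of mmu-mir-21a to mmu-mir-142a from -0.49 to 0.24. For the marker lists, where leaving out libraries was chosen after seeing the data, the ratio of mean levels of mmu-mir-126a of endothelium was 0.227 with all libraries, and from 0.176 without activated 1 to 1.18 without control 4. That of the sum of immune miRNAs was 1.09 with all, 0.879 without activated 1, 0.947 without control 1, 0.939 without control 3 and 1.71 without control 4.

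Differences in shares that changed sign are in percentage points. Leaving out 1 library, tails ranged from -0.236 to 0.249 for mmu-mir-142a, -0.172 to 2.18 for mmu-mir-146a, -0.194 to 1.5 for mmu-mir-146b, -0.635 to 2.20 for mmu-mir-21a and -4.32 to 1.86 for mmu-mir-223. The minor arm ranged from -0.0196 to 0.403 for mmu-mir-146b and -0.576 to 0.443 for mmu-mir-223. The reference start ranged from -0.233 to 2.05 for mmu-mir-142a, -0.257 to 0.274 for mmu-mir-146a and -3.16 to 0.396 for mmu-mir-223. With fragments of 18 to 25 nt, mmu-mir-146b differed by -0.00714 in the reference start and by -0.379 in tails, its tailed share moving to a mean of 10.4%.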
